A study of Mus musculus with 300 samples.

Results

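The core of Polycomb repressive complex 2 (PRC2) was followed in single early thymic progenitors (ETP): the genes of its alternative catalytic subunits, Ezh2 and Ezh1, and of its scaffold subunits, Suz12 and Eed. All 4 genes were taken by name and all 4 are among the 13737 features of the deposited matrix, so that each has a value in each of the 261 cells analysed. The cells came from the embryonic thymus of untreated 5x polychromILC mice, a strain with several reporter alleles, at stage E15.5, and were profiled by Smart-seq2, a plate-based full-length method for single-cell RNA. They form 1 group with 4 mouse ids, which gave 67 (1A), 69 (1B), 64 (2A) and 61 cells (2B). There was no second genotype and no treatment, so the comparisons below are between cells of the same mouse. Whether a mouse id is 1 embryo or several, and the sort gate, were not stated in the labels used here.

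PRC2 places methyl groups on lysine 27 of histone H3, a mark of repressed genes. Ezh2 and Ezh1 each carry the methyltransferase domain and replace each other in the complex, while Suz12 and Eed are needed for its assembly and activity, and Eed also binds the mark. Ezh2 is known mainly from dividing cells and as a target of E2F transcription factors, and Ezh1 is widely found in cells that rarely divide; in developing T cells PRC2 is known to be needed for normal early thymocyte differentiation.

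In the genome build GRCm38 with GENCODE vM21 annotation, all 4 are protein-coding genes. Ezh2 (ENSMUSG00000029687.16) lies on the minus strand of chr6:47530139-47595341, Ezh1 (ENSMUSG00000006920.14) on the minus strand of chr11:101191115-101226463, Suz12 (ENSMUSG00000017548.15) on the plus strand of chr11:79993106-80034123 and Eed (ENSMUSG00000030619.9) on the minus strand of chr7:89954654-89980983. Genes annotated across Ezh2 (Gm26625 and Gm44282), Suz12 (Gm26563) and Eed (Gm45120 and E230029C05Rik) have no value among the features used here, so a share of their reads cannot be told apart from that of the member. No annotated gene overlaps Ezh1.

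The promoters of the catalytic pair are shown because these genes differed most in their relation to the cell-cycle scores described below. Each run holds 250 bases before and 50 bases after the RefSeq start site (GRCm38.p6), read 5′ to 3′ on the strand of the gene; capitals mark a match to the E2F consensus.
Ezh2, chr6:47594981-47595280, minus strand: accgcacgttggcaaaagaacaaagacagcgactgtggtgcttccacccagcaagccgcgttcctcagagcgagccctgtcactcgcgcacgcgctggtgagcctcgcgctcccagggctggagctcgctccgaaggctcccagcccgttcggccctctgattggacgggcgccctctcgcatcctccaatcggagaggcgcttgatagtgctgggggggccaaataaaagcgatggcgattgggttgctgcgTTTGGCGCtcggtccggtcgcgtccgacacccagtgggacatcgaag
Ezh1, chr11:101226414-101226713, minus strand: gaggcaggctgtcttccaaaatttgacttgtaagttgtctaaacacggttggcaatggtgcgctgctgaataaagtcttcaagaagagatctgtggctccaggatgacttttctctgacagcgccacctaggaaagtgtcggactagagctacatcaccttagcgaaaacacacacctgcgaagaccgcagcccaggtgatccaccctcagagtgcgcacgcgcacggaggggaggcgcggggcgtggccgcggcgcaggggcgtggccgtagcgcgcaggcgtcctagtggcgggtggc

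The E2F search used the spellings TTTCCCGC, TTTCGCGC, TTTGCCGC and TTTGGCGC on both strands. The Ezh2 window holds TTTGGCGC at its bases 254 to 261, just after the start site, and the Suz12 window holds TTTCCCGC at its bases 32 to 39. No match is in the Ezh1 or Eed window, and 744 of 32851 RefSeq promoter windows of the same length (2.26%) hold one. The CHR element (TTTGAA or TTCGAA, both strands), known from genes of mitosis, is in the Suz12 and Eed windows and in 19.2% of all windows. CCAAT, searched on both strands, is in the Ezh2, Suz12 and Eed windows and in 37.4% of all windows. The matches in the windows of the 4 genes do not overlap each other, and the motifs were chosen after results of these data were known; a match in letters shows no binding.

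The deposited values are normalized log2 expression after a correction between batches, and read depth per cell is not in the matrix. Cells fell into 4 correction sets, recognised by exactly shared values, and each set gives a gene a repeated lowest value, taken as the level at no reads. Detection means any departure from that value, and the log2 level of a gene is its distance above it, so that 0 means no reads. The stricter "level of at least 10" is 10 or more linear units over the value at no reads. Over 12054 genes with such a level in every set, a cell had a median of 6114 detected genes (range 3574 to 8667), and the medians of the mice ran from 5857 (1A) to 6565 (2B). Nearly all cells of 2A and 2B belong to the same 2 sets, whereas 61 of the 67 cells of 1A and 64 of the 69 cells of 1B come from 1 set each. Genes of the progenitor list were detected in a median of 89.7% of cells, where the median over all features was 57.9%. Those of the T specification list had a median of 56.7%, from 6.51% to 98.5% by gene. The medians were 54.8% for dendritic, 29.1% for mast cell and basophil and 26.1% for NK and innate lymphoid genes. They were 23.2% for macrophage, 18.97% for thymic stroma and 10.3% for B cell genes. By a rule of 40% of a list's genes at a level of at least 10, 80 of the 261 cells carried markers of other cell types. The markers were those of dendritic cells (37 cells), macrophages (17), mast cells and basophils (12) or NK and innate lymphoid cells (26). Some cells carried markers of several lists. For this rule the NK and innate lymphoid list had 13 genes, without Id2, Rora, Il7r, Icos and Zbtb16. The dendritic list shares Flt3 with the progenitor list. The 80 cells are kept unless stated. Whether the deposited levels are scaled to transcript length is not given, so levels are compared between cells and mice and not between genes.

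Ezh2, the main methyltransferase of dividing cells, was the most widely detected member, and its share of cells varied least between mice. It was detected in 63 of 67 cells of mouse 1A (94.03%), 65 of 69 of 1B (94.2%), 61 of 64 of 2A (95.3%) and 58 of 61 of 2B (95.1%), a mean of 94.7 ± 0.635% (SD, n = 4 mice). The exact 95% Clopper-Pearson intervals of the 4 mice together span 85.4 to 99.0%, and all intervals here cover counting error only. The detected share lay near its upper limit, where it has little room to vary. At a level of at least 10 the share was 80.1 ± 3.601%. The mean log2 level of Ezh2 was 5.42 in 1A, 6.42 in 1B, 6.33 in 2A and 6.44 in 2B, so that mouse 1A was low. The correction set that holds 61 of the 67 cells of 1A had a mean of 5.20, and mouse and set cannot be told apart. Mouse 1A had the lowest median of detected genes (5857), and that of 1B was close to it (5884). The SD of the 4 mean levels of Ezh2 (0.491) was larger than that of Suz12 (0.360) or Eed (0.254) and close to that of Ezh1 (0.524).

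Ezh1, the alternative methyltransferase, was the least widely detected member, and its share varied most. It was detected in 34.3% of cells in mouse 1A, 50.7% in mouse 1B, 56.3% in mouse 2A and 57.4% in mouse 2B, a mean of 49.7 ± 10.6% (SD, n = 4 mice). The interval of 1A (23.2 to 46.9%) ends below the shares of the other 3 mice, although it overlaps their intervals. In the correction set that holds most cells of 1A the share was 35.8%, and mouse and set cannot be told apart. At a level of at least 10 the share of Ezh1 was 17.9% in 1A, 39.1% in 1B, 34.4% in 2A and 32.8% in 2B. In mouse 2A, whose cells were sequenced in both pools, Ezh1 was detected in 19 of 29 cells of pool 1 (65.5%) and 17 of 35 cells of pool 2 (48.6%).

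Of the scaffold genes, Eed was close to Ezh2 in detection and Suz12 lay between Eed and Ezh1. Eed was detected in 89.6% of cells in mouse 1A, 86.96% in mouse 1B, 90.6% in mouse 2A and 93.4% in mouse 2B, a mean of 90.1 ± 2.68%. Suz12 was detected in 58.2% of cells in mouse 1A, 71.01% in mouse 1B, 79.7% in mouse 2A and 70.5% in mouse 2B, a mean of 69.9 ± 8.83% (SD, n = 4 mice each). Suz12 lost the most at the stricter level, with 42.1 ± 4.52% of cells at 10 or more, whereas Eed kept 77.5 ± 4.41%. The order Ezh2, Eed, Suz12, Ezh1 held in each of the 4 mice for detection, though the intervals of Ezh2 and Eed overlapped in every mouse. At the stricter level Eed was ahead of Ezh2 in 1A (52 against 51 of 67 cells) and in 2B (51 against 50 of 61 cells). Ezh2 was ahead at that level in 1B (58 against 52 of 69 cells) and in 2A (50 against 47 of 64 cells). The median over all features was detection in 57.9% of cells, and Ezh2, Eed, Suz12 and Ezh1 were detected more widely than 87.6%, 82.05%, 60.6% and 42.7% of features.

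**Figure D1:**
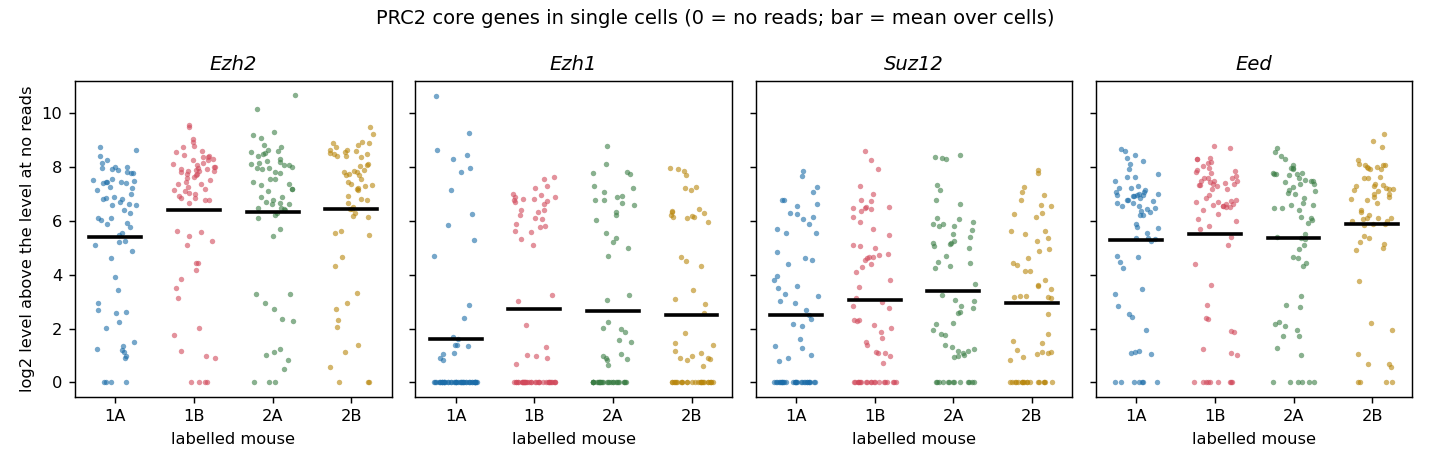
Log2 level above the level at no reads (y axis) of the 4 PRC2 core genes in each cell, by labelled mouse (x axis); points are cells, bars are means over cells, and 0 means no reads. Cells at 0 are few for Ezh2 and Eed and many for Ezh1, where mouse 1A has a mean of 1.60 and the other mice have means of 2.51 to 2.72.

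All 4 core transcripts were found together in 86 of the 261 cells (32.95%), 3 of them in 112 cells, 2 in 52, 1 in 9 and none in 2. The share of cells with all 4 was 22.4% in 1A, 30.4% in 1B, 39.1% in 2A and 40.98% in 2B. For the catalytic pair, 122 cells (46.7%) had Ezh2 and Ezh1, 125 (47.9%) had Ezh2 without Ezh1, 7 had Ezh1 without Ezh2 and 7 had neither. The cells with both made up 29.9% of mouse 1A, 47.8% of mouse 1B, 53.1% of mouse 2A and 57.4% of mouse 2B. The product of the separate shares would give 32.3%, 47.8%, 53.6% and 54.6%, so observed and product shares differed by a mean of -0.01 ± 2.17 percentage points (SD, n = 4 mice). Over the 6 pairs of members, the mean difference between the observed share and the product ran from -0.01 points (Ezh2 with Ezh1) to 2.09 points (Ezh1 with Eed). At the stricter level the mean difference was positive for all 6 pairs, from 1.42 ± 2.15 points (Ezh2 with Ezh1, positive in 2 of 4 mice) to 3.26 ± 1.745 points (Ezh1 with Eed, positive in 4 of 4). The product does not allow for the number of detected genes per cell. Each member rose with that number in 4 of 4 mice, with mean Spearman correlations from 0.162 (Suz12) to 0.325 (Ezh2).

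Levels of the members were also only weakly related to each other within mice. The partial Spearman correlation, given the number of detected genes and the correction set, had means over the 4 mice from 0.008 (Ezh1 with Suz12) to 0.129 (Ezh1 with Eed), with signs that differed between mice for 5 of the 6 pairs; these values describe 61 to 69 cells per mouse, and the cells of 1A, 2A and 2B come from 2 plates each. Ranked by mean partial correlation among 12438 genes, the genes most like Ezh2 were Tex30 (0.413), Stmn1 (0.383), which encodes the microtubule regulator stathmin, Gm10131 (0.379), Gm13461 (0.378) and Mif (0.372), each positive in all 4 mice. Those most like Ezh1 were Trim6 (0.261), Glo1 (0.250), Igdcc4 (0.233), Ttc23 (0.228) and Ift140 (0.222). Those most like Suz12 were Acaca (0.265), which encodes acetyl-CoA carboxylase, Dcdc2c (0.242), Mag (0.233), Yif1a (0.230) and Trim25 (0.219). Those most like Eed were Hnrnpab (0.274), Gm3222 (0.264), Anp32b (0.263), Acer3 (0.255) and Gm6091 (0.252). No member was among the 5 genes most like another, and Ezh1 and Eed were the closest pair: Eed ranked 351 in likeness to Ezh1.

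The relation to the cell cycle was read from the mean set-centred value of 43 S-phase genes. Within each mouse, S-high cells lay above the median score and S-low cells at or below it, and 19 of the 261 cells lay within 0.1 of the median of their mouse. Ezh2 was detected in all 129 S-high cells, with an exact interval of 97.2 to 100.0%, and in 118 of 132 S-low cells (89.4%). Of the 14 S-low cells without Ezh2, 11 carried markers of other cell types. The mean log2 level of Ezh2 was 6.80 in S-high and 4.08 in S-low cells of 1A, 7.38 and 5.48 in 1B, 7.04 and 5.62 in 2A, and 7.77 and 5.16 in 2B. Every S-high mean lay above every S-low mean, and the within-mouse difference was 2.16 ± 0.616 (SD, n = 4 mice).

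Eed was also higher in S-high cells of every mouse: 6.22 against 4.43 in 1A, 6.02 against 5.04 in 1B, 6.19 against 4.54 in 2A and 6.88 against 4.90 in 2B, a difference of 1.59 ± 0.435. Suz12 had mean log2 levels of 3.46, 3.51, 3.67 and 2.97 in S-high cells (mice in the order 1A, 1B, 2A, 2B), against 1.60, 2.66, 3.10 and 2.92 in S-low cells, so that mouse 2B showed next to no difference. Ezh1 had 2.06, 2.32, 2.32 and 3.00 in S-high cells, against 1.15, 3.12, 2.98 and 2.03 in S-low cells, which is higher in 2 mice and lower in the other 2. S-high cells also had more detected genes in every mouse, with a mean of 6325 against 5663 in S-low cells. Summed over the mice, fewer S-high cells carried markers of other cell types, with 26 of 129 against 54 of 132. Mice 1A, 1B and 2B had this direction. Mouse 2A went the other way, with 13 of 32 S-high cells against 9 of 32 S-low cells. These raw differences carry no test.

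**Figure D2:**
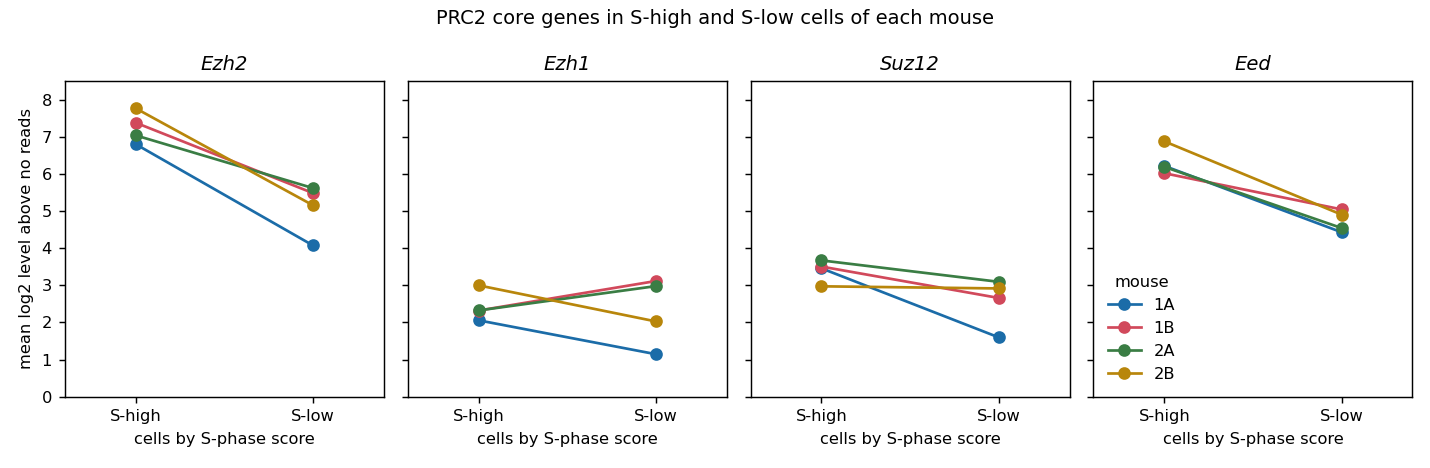
Mean log2 level above the level at no reads (y axis) of each PRC2 core gene in S-high and S-low cells (x axis), 1 line per labelled mouse. The lines of Ezh2 and Eed fall in the same direction in all 4 mice, and those of Ezh1 cross, with 2 mice higher in S-high and 2 in S-low cells.

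**Figure D3:**
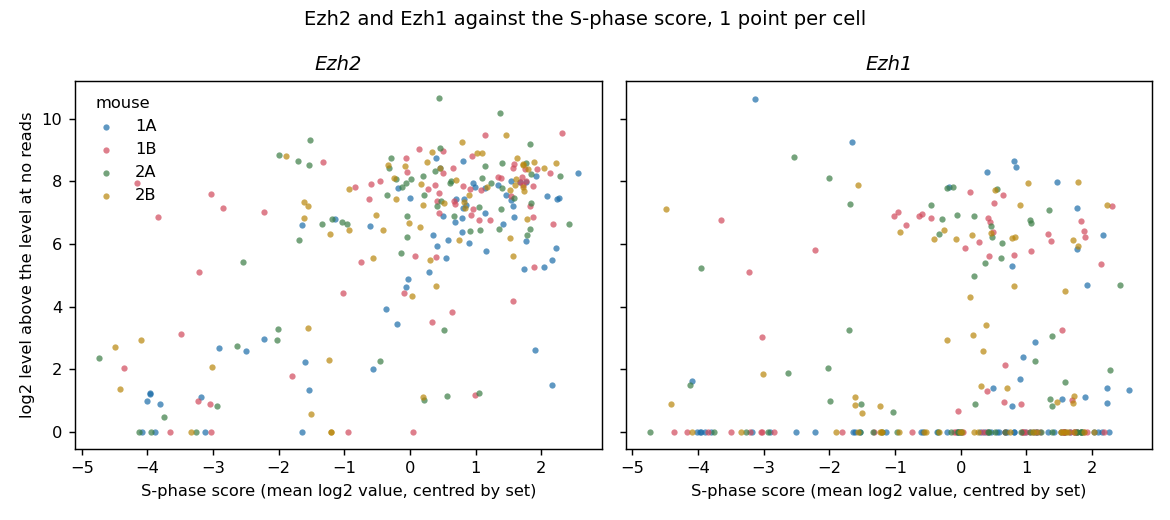
Log2 level above the level at no reads (y axis) of Ezh2 and Ezh1 against the S-phase score (x axis, log2 units), 1 point per cell, coloured by mouse. Cells of low score reach down to 0 for Ezh2 and every S-high cell lies above it, whereas Ezh1 has cells at 0 along the whole score; the mean within-mouse partial Spearman correlations are 0.40 and -0.07.

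The test of these differences adjusted each mouse for the number of detected genes and the correction set and then asked, with limma's moderated test over the mice, whether the 4 adjusted differences per gene depart from 0. Of 12396 genes, 81 were higher in S-high cells (0.653% of genes) and 3 were lower (0.0242%) at a Benjamini-Hochberg adjusted p under 0.05, and none of the 4 PRC2 core genes was among them. The 84 calls became 21 without mouse 1A, 5 without 1B and 0 without 2A or without 2B, with 1820 and 1387 genes at an unadjusted p under 0.05 in the last pair of fits. The adjusted difference of Ezh2 was 1.28 in 1A, 1.13 in 1B, 1.06 in 2A and 2.30 in 2B, a mean of 1.44 ± 0.582 (SD, n = 4 mice; limma adjusted p = 0.0789), and 99.0% of genes had a smaller mean. Eed had 1.04 ± 0.595 (limma adjusted p = 0.161), positive in 4 of 4 mice with mouse 1B near 0 at 0.15. Suz12 had 0.61 ± 0.514 (limma adjusted p = 0.355), positive in 3 of 4 mice. Ezh1 had -0.42 ± 1.09 (limma adjusted p = 0.715), with a range from -1.55 in 2A to 0.63 in 1A. The result for Ezh2 depended on the fit. Of 17 alternative fits, Ezh2 passed in 3 and did not pass in 14. Without the depth covariate its difference was 2.13 and passed (limma adjusted p = 0.00539), as did 19.1% of all genes, and that of Eed was 1.52 (limma adjusted p = 0.00836). With only the cells at either end of the score (lowest against highest tercile) the difference of Ezh2 was 2.41 (limma adjusted p = 0.0375). That fit called 0.726% of genes. With the correction set as the unit Ezh2 had 1.49 (limma adjusted p = 0.0377), and 0.904% of genes were called. Leaving out 1 mouse gave 1.15 to 1.57 (limma adjusted p = 0.146 to 0.232). With levels under 10 set to no reads it was 1.69 (limma adjusted p = 0.128). Without the 80 cells that carry markers of other cell types it was 0.80 (limma adjusted p = 0.432).

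Among the 181 cells without such markers, Ezh2 was detected in 98.3% and in the 80 cells with them in 86.3%; at the stricter level these became 90.1% and 57.5%. When the score was divided again at the median of these 181 cells, the mean log2 level of Ezh2 in S-high cells was 6.43 in 1A, 7.42 in 1B, 6.97 in 2A and 7.92 in 2B, against 6.29, 6.93, 6.66 and 5.86 in S-low cells. S-high was higher in all 4 mice, but the difference was 0.14 to 0.49 in 3 of them and 2.06 in 2B. For Eed the same division gave a difference of 0.97 ± 0.959, with 1B at -0.08, for Suz12 0.78 ± 0.875 and for Ezh1 -0.29 ± 1.16 (SD, n = 4 mice each). The 37 cells with dendritic markers had Ezh2 at a level of at least 10 in 17 (45.9%), Ezh1 in 8 (21.6%), Suz12 in 11 (29.7%) and Eed in 27 (72.97%), a mean S-phase score of -1.43 against 0.46 in the 181 cells, and a median of 5308 against 6271 detected genes. The part of these cells in the relation of Ezh2 to the score beyond the values given here was not tested.

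The G2M score, from 53 genes of the later cycle, divided Ezh2 in the same direction in each mouse before adjustment. Its mean log2 level was 6.37 in G2M-high and 4.49 in G2M-low cells of 1A, 7.30 and 5.56 in 1B, 7.39 and 5.27 in 2A, and 7.45 and 5.47 in 2B, a difference of 1.93 ± 0.163 (SD, n = 4 mice). G2M-high cells also had more detected genes (a mean of 6330 against 5658 over the mice) and fewer cells with markers of other cell types (30 of 129 against 50 of 132). When the cells with such markers were left out and the score was divided again, the raw difference of Ezh2 was 0.72 ± 0.890, with 1A at -0.59. After adjustment, with all cells, the difference was -0.16 in 1A and 0.95 to 2.00 in the other mice, with a mean of 1.05 ± 0.912 (limma adjusted p = 0.283). Without the depth covariate it was 1.87 (limma adjusted p = 0.00318), in a fit that called 15.4% of all genes. Without the cells that carry other markers it was 0.85 (limma adjusted p = 0.532), and with the score divided again among the rest 0.55 (limma adjusted p = 0.731). In the adjusted fit, 145 of 12386 genes were higher in G2M-high cells (1.17%) and 7 were lower (0.0565%), again with no PRC2 core gene among them. The adjusted means were 0.58 ± 1.01 for Suz12, 0.55 ± 1.12 for Eed and -0.07 ± 0.597 for Ezh1, with limma adjusted p of 0.588, 0.638 and 0.944. For each of these genes at least 1 mouse had the opposite sign to the mean.

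Cells low for both scores had the lowest level of Ezh2, before any adjustment. Its mean log2 level was 7.56 ± 0.580 in cells high for both scores, 6.90 ± 0.511 in S-high, G2M-low cells, 6.51 ± 0.576 in S-low, G2M-high cells and 4.05 ± 0.698 in cells low for both (SD, n = 4 mice). The last group lay below the other 3 in every mouse. It also held 39 of the 80 cells with markers of other cell types, among 79 cells, and had the fewest detected genes (a mean of 5377 over the mice, against 6125 to 6476 in the other groups). Without the cells that carry such markers, the same groups had Ezh2 at 7.50 ± 0.707, 6.73 ± 0.752, 6.80 ± 0.841 and 5.86 ± 0.733, from 6 to 21 cells per mouse and group. The cells low for both were then the lowest in 3 of 4 mice, and in 1A they lay above the S-low, G2M-high cells (6.19 against 5.61). Over all cells, Eed had 6.72 ± 0.432, 5.69 ± 0.755, 5.28 ± 0.804 and 4.49 ± 0.485 in the same order of groups. Suz12 had 3.39 ± 0.321, 3.35 ± 0.724, 3.40 ± 0.479 and 2.15 ± 0.979. For both genes mouse 2A went the other way, with cells low for both (Eed 5.03, Suz12 3.145) above S-low, G2M-high cells (4.115 and 3.05). Without the cells that carry other markers, Eed had 6.80 ± 0.513, 5.70 ± 0.737, 5.32 ± 0.849 and 5.01 ± 0.389. Suz12 then had 3.67 ± 0.752, 3.645 ± 0.984, 3.11 ± 0.464 and 2.65 ± 1.45. In 2B, Suz12 was then highest in the cells low for both (3.69, against 2.66 to 3.28 in the other groups). Over all cells, Ezh1 had 2.54, 2.36, 2.66 and 2.07, with SDs of 0.574 to 1.41, and no group was the lowest or the highest in all 4 mice.

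**Figure D4:**
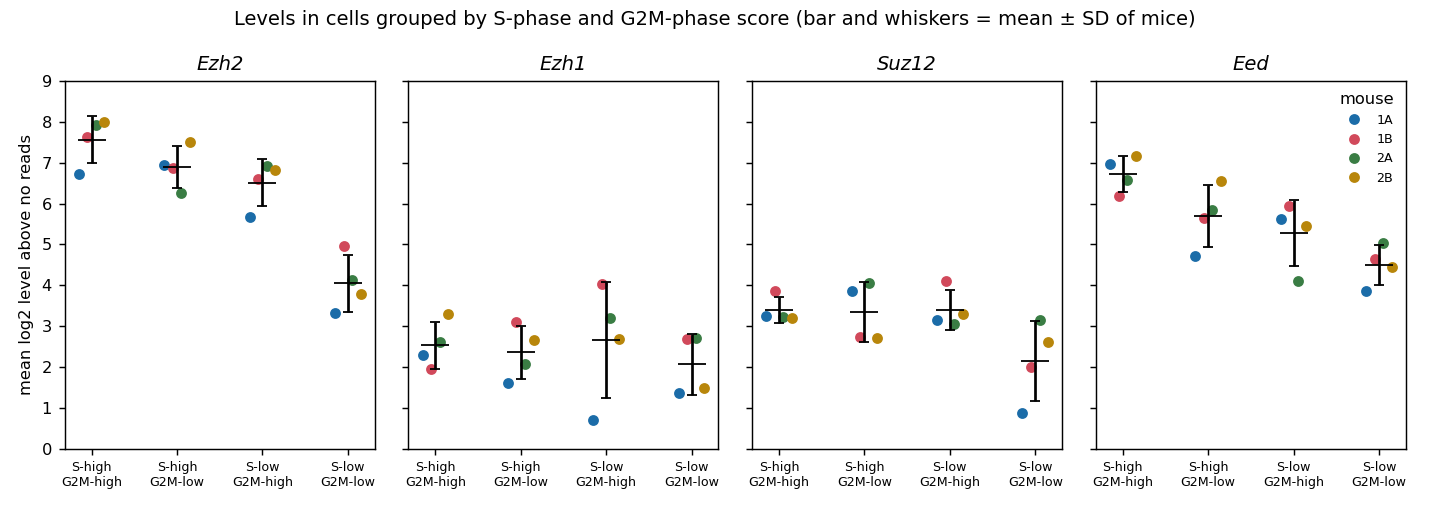
Mean log2 level above the level at no reads (y axis) of each PRC2 core gene in cells grouped by both cell-cycle scores (x axis); points are labelled mice, bars and whiskers are the mean ± SD of 4 mice. For Ezh2 the cells low for both scores lie at 3.32 to 4.97, below the other groups (5.67 to 7.99), while the groups of Ezh1 overlap.

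Kit, the stem cell factor receptor that marks early progenitors, was detected in 91.01 ± 5.70% of cells (SD, n = 4 mice), and cells were divided at its median within each mouse. Ezh2 had mean log2 levels of 5.92, 7.19, 6.69 and 7.08 in Kit-high cells of 1A, 1B, 2A and 2B, against 4.93, 5.67, 5.97 and 5.82 in Kit-low cells. It was higher in Kit-high cells of each mouse, by 1.12 ± 0.348. Ezh1 had 1.53, 3.65, 3.24 and 3.17 in Kit-high cells, against 1.66, 1.82, 2.07 and 1.86 in Kit-low cells, which is higher in 3 of 4 mice. Kit-high cells held 15 of the 80 cells with markers of other cell types and Kit-low cells 65, and the mean number of detected genes was 6293 in Kit-high and 5691 in Kit-low cells. In the adjusted limma test no gene of 12438 passed in either direction (0% higher and 0% lower), with 1810 genes at an unadjusted p under 0.05. The adjusted differences were 0.57 ± 0.526 for Ezh2, 0.84 ± 0.893 for Ezh1, 0.13 ± 1.16 for Suz12 and 0.12 ± 0.813 for Eed, with limma adjusted p of 0.370, 0.322, 0.931 and 0.905. Without the depth covariate the difference of Ezh2 was 1.23 (limma adjusted p = 0.0200), in a fit that called 13.3% of all genes. Without the cells that carry other markers the difference of Ezh2 turned to -0.19 (limma adjusted p = 0.938). Ezh1, Suz12 and Eed then had 0.86, -0.20 and 0.15 (limma adjusted p = 0.757, 0.961 and 0.966). Kit was also divided again among the remaining cells, a division chosen after seeing the data. Ezh1 was then higher in Kit-high cells of 4 of 4 mice, by 1.25 ± 0.753 before adjustment, with 1A at 0.14. Before adjustment Ezh2 had -0.13, Suz12 -0.57 and Eed 0.007 in the same division. After adjustment Ezh1 had 1.30 (limma adjusted p = 0.646), in a fit that called 0 genes.

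Bcl11b, the transcription factor of T-lineage commitment, was detected in 4 cells of 1A, 2 cells of 1B, 15 cells of 2A and 15 cells of 2B. Mouse 1B was below the minimum of 3 cells and left out of the test. Ezh2 had mean log2 levels of 6.90, 5.77 and 7.10 in cells with Bcl11b of 1A, 2A and 2B, against 5.32, 6.50 and 6.23 in cells without it. Suz12 had 4.18, 2.38 and 2.22 in cells with Bcl11b, against 2.41, 3.69 and 3.18 in cells without it. Neither gene was higher or lower in all 3 mice. No gene of 12438 passed in either direction by limma (0% higher and 0% lower), with 796 at an unadjusted p under 0.05. The adjusted differences were -0.34 ± 0.492 for Ezh2, -0.18 ± 0.547 for Ezh1, -0.62 ± 1.13 for Suz12 and 0.25 ± 0.826 for Eed (SD, n = 3 mice), with limma adjusted p of 0.917, 0.966, 0.870 and 0.9503.

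**Figure D5:**
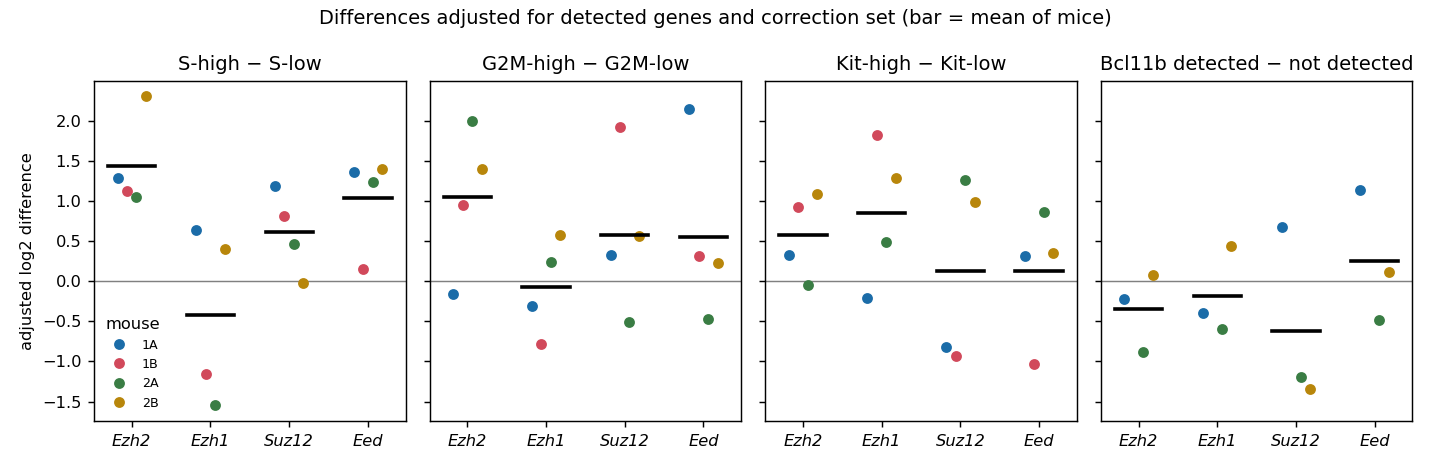
Log2 difference between groups of cells, adjusted for detected genes and correction set (y axis), of each PRC2 core gene (x axis) in the 4 comparisons; points are labelled mice and bars their mean. Ezh2 lies above 0 in all 4 mice for S phase only, with a mean of 1.44, and mouse 1B has no value for Bcl11b.

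Members were compared by their adjusted differences within mice, in 6 pairs and 4 comparisons. For S phase, Ezh2 exceeded Ezh1 by 1.86 ± 0.856 and Suz12 by 0.83 ± 1.02, each in 4 of 4 mice, and Ezh1 minus Eed was -1.46 ± 0.916, negative in 4 of 4. For G2M phase, Ezh2 exceeded Ezh1 by 1.12 ± 0.781 in 4 of 4 mice. Each of these 4 differences had an exact two-sided sign-flip permutation p of 0.125, which is the smallest that 4 mice allow, and an adjusted p of 0.75 over the 24 comparisons. None of the 24 passed, and the design could not have let one pass.

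Related chromatin genes had no calls in the same limma fits, in which few genes passed at all (0.653% higher and 0.0242% lower for S phase, 1.17% and 0.0565% for G2M phase). The PRC2 partners are the histone-binding proteins Rbbp4 and Rbbp7 and accessory subunits such as Jarid2, Mtf2 and Phf19. Of 9 listed, 8 were measured and tested, and 0 passed in any comparison. For S phase 7 of 8 had a positive mean, as did 57.8% of all genes tested. Their median was 0.37, against 0.07 over all genes tested. Rbbp7 had 0.76 ± 0.122 (limma adjusted p = 0.185) and Rbbp4 0.51 ± 0.175 (limma adjusted p = 0.359), each positive in 4 of 4 mice. Of the 23 PRC1 genes, whose complex places ubiquitin on histone H2A and reads the PRC2 mark, 0 passed in any comparison. For S phase 12 of the 23 had a positive mean, beside 57.8% of all genes, with a median of 0.06. Cbx2, which binds methylated H3, had 1.10 ± 0.493 (limma adjusted p = 0.128), positive in 4 of 4 mice. Of 9 genes of enzymes that oppose or counter Polycomb marks, such as the H3K27 demethylase Kdm6a and the deubiquitinase cofactor Asxl1, 0 passed in any comparison, and the median for S phase was -0.18.

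The E2F and RB family, which controls entry into S phase, held the calls among the listed genes. Of 12 tested genes, 2 were higher in S-high cells and 0 lower, with a median of 0.83 against 0.07 over all genes. E2f1, a transcriptional activator, had adjusted differences of 2.20, 2.37, 2.08 and 1.30 in the same order of mice (mean 1.99 ± 0.471; limma adjusted p = 0.0246). Rbl1, which encodes the pocket protein p107, had 1.94, 1.55, 1.14 and 1.43 (mean 1.51 ± 0.334; limma adjusted p = 0.0352). In G2M-high cells E2f1 was lower, with a mean difference of -1.39 ± 0.263 and the same sign in 4 of 4 mice (limma adjusted p = 0.0278), and no other gene of the family passed. None of these 3 calls held when any 1 of the 4 mice was left out, although the differences stayed close in size: 1.86 to 2.22 for E2f1 in S phase (limma adjusted p = 0.0834 to 0.114), 1.37 to 1.64 for Rbl1 (0.116 to 0.174 by limma, adjusted) and -1.49 to -1.30 for E2f1 in G2M phase (0.0912 to 0.146 by limma, adjusted). All 3 were also lost with levels under 10 set to no reads, with only the cells at either end of the score, with detection as the outcome and with each gene's own variance. Rbl1 was lost without the filter on detection (limma adjusted p = 0.0534), and with correction sets as the unit Rbl1 (0.0972) and E2f1 in G2M phase (0.0942) were lost by the same test. All 3 held with plate as covariate, without the depth covariate, without the first 8 wells and with the other cell-cycle score as covariate. None held without the cells that carry markers of other cell types either, where Rbl1 had 1.18 and E2f1 2.16 for S phase (limma adjusted p = 0.227 and 0.0951) and E2f1 -1.41 for G2M phase (limma adjusted p = 0.129). For Kit and for Bcl11b 0 of the 12 passed.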

How the data were processed

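Single cells were sorted into plates, reverse transcribed from oligo-dT primers, amplified by PCR and tagmented, per the labels' protocols; the submitters' processing notes name Salmon and the build GRCm38. The authors deposited 1 matrix of log2 normalized values, corrected between sets of cells, for 261 of 300 labelled cells; the other 39 were not analysed here. How values were normalized, corrected and filtered was not stated in the labels used here. Gene IDs were matched to GENCODE vM21 symbols (13578 of 13737).

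Detection differed from the repeated lowest value by more than 1e-06. Genes detected in at least 10% of cells were tested. Within each mouse, a linear model gave the difference between groups of cells, with detected genes and correction set as covariates; these differences, 1 per mouse, were tested with limma 3.58.1 in R 4.3.3 (intercept only, two-sided, Benjamini-Hochberg at 0.05), leaving out the genes that defined the groups. The p-values measure the spread between mouse ids, which may be technical; since 2A and 2B share sets, they may not be independent. Other steps used Python 3.11.15 (scipy 1.17.1). The script was tested on simulated data. Named genes were the members, called genes of 4 lists (else up to 4 per list with the largest mean difference, of which some are printed) and the 5 genes most like each member. Members and lists were chosen with earlier results of these data known. Plate, depth, filter, scale, unit, left-out mice and left-out cells were varied. Dividing the scores again, and grouping by both scores, without cells that carry other markers were chosen after seeing the data.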

Additional observations from a re-analysis of the deposited data

Results flagged for a closer look

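Of 24 sets of 4 mouse values tested for a lone extreme value, 2 exceeded Dixon's 95% critical value, and chance gives about 1 in 20. The mean log2 level of Ezh2 in mouse 1A was 5.42, against 6.33 to 6.44 in the other mice. Of the 67 cells of 1A, 61 belong to 1 correction set, so mouse and set cannot be told apart. The same mouse had the lowest median of detected genes (5857, against 5884 in 1B), and 28 of its 67 cells carried markers of other cell types. Among cells without such markers the mean was 6.36 in 1A, against 6.81 to 7.18 in the other mice. The adjusted S-phase difference of Eed was 0.15 in mouse 1B, against 1.24 to 1.405 in the others.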

How the results depend on the processing

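Of 276 values of the members under alternatives, 238 kept direction and call, 6 newly passed and 32 changed sign, and the cause was not tested. No member passed in the main fits, so no call could be lost. Some alternatives could not change a sign: dropping the detection filter, aligning the zero levels and each gene's own variance left every member's difference as it was. For Bcl11b, leaving out 1B repeated the main fit, and at least 5 cells repeated the fit without 1A. Called genes numbered 84 for S phase and 152 for G2M phase. They were 2367 and 1909 without the depth covariate, 0 and 5 with detection as outcome, 3 and 70 without cells with other markers, 9 and 71 with the median taken again among the rest (chosen after seeing the data), 0 and 1 with each gene's own variance, and 0 to 21 and 56 to 92 when 1 mouse was left out. For S phase they were also 30 without the filter, 5 with levels under 10 set to no reads and 43 without the first 8 wells. For Kit, against 0, they were 1658 without the depth covariate and 5 with plate. For Bcl11b the count stayed 0 by limma, with 625 to 886 genes at an unadjusted p under 0.05. The samples form 1 group and the test is already taken within mice, so no block was added.

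Without other-marker cells, sign changes came for Kit in Ezh2 (-0.19) and Suz12 (-0.20), and with the median then taken again for Kit in Ezh2 (-0.31), Suz12 (-0.38) and Eed (-0.0036) and for G2M in Suz12 (-0.064). Without the depth covariate Ezh2 with Bcl11b was 0.30, and Ezh1 was 0.039 for S phase, 0.37 for G2M and 0.025 for Bcl11b. With plate Ezh1 was 0.011 for G2M. With sets as units Ezh1 was 0.15 for G2M, Suz12 -0.17 and Eed -0.012 for Kit, and Eed -0.22 for Bcl11b. As detection, Ezh1 was 0.0015 for S phase, Suz12 -0.062 and Eed -0.022 for Kit. Suz12 for Kit was -0.57 by terciles and -0.0088 with both scores added. With Bcl11b at a level of at least 10, Ezh2 was 0.43, Suz12 0.43 and Eed -0.077, and Eed was -0.82 with at least 2 and -0.19 with at least 5 cells. Leaving out 1 mouse gave -0.28 to 0.17 (G2M) and -0.49 to 0.021 (Bcl11b) for Ezh1, -0.25 to 0.48 for Suz12 with Kit, and -0.12 to 0.51 (Kit) and -0.19 to 0.63 (Bcl11b) for Eed.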
